A study of Mus musculus with 6 samples.

Results

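The 32 genes described here encode the constitutive proteasome: 7 alpha and 7 beta subunits of the 20S core particle, 6 ATPases, 3 further base subunits and 8 lid subunits of the regulatory cap, and the maturation factor Pomp. They were taken by name from 20476 coding genes that had a probe for a RefSeq transcript on the array. All 32 were on the array, with 1 to 4 probes each and 72 in all. All 72 probes were tested, and 71 had signal that the scanner software called well above background on every array. On the 72nd, a Psma5 probe, wild type 1 had an outlier flag and was treated as missing.

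RNA came from prefrontal cortex of male mice of the outbred ICR stock aged 3 to 4 months. There were 3 wild type samples and 3 samples labelled Nrf2 knockout, with no treatment named and 1 array per sample. Nrf2 is the transcription factor made from the gene Nfe2l2. The deleted part of the gene and the cells that lack it are not stated in the labels. They also do not say if the samples are separate animals, so p-values speak only of the spread among these arrays, some of which may be technical.

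The proteasome is the barrel-shaped protease that degrades proteins tagged with ubiquitin. Its alpha rings gate the entrance, 3 of its beta subunits carry the active sites, and the cap recognises, unfolds and feeds in the substrate. In brain it clears damaged and short-lived proteins at synapses and in cell bodies. Nrf2 and its relative Nrf1 (Nfe2l1) are both known to activate subunit genes through antioxidant response elements, Nrf2 mainly after oxidant stress and Nrf1 when the proteasome itself is inhibited. The comparison asks whether basal mRNA of the subunits differs in cortex labelled as lacking Nrf2.

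Levels are log2 of the scanner's processed signal minus the 75th percentile of the array, so that 1 unit is a factor of 2. Each probe has its own affinity, so no level was set against that of another gene. Differences are knockout minus wild type on the log2 scale with the 95% interval from limma. For a gene with several probes, the one with the highest mean over the arrays is given unless another is named. Wild type 1 to 3 and knockout 1 lay on 1 slide (slide 1), and knockouts 2 and 3 on a second one that was also scanned separately (slide 2). For some results a second value, from a fit with slide as a block, stands beside the first. With the slide in the model the difference is that of knockout 1 from the 3 wild type arrays alone.

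A probe of each of 4 catalytic subunits is shown first, because the constitutive and the cytokine-induced catalytic subunits are close relatives and have to be told apart by sequence. Psmb5 carries the chymotrypsin-like site and Psmb6 the caspase-like site. Psmb8 and Psmb9 replace them in the immunoproteasome. Capitals mark the bases identical to the other probe of the pair in the best overlap without gaps, each sequence being 60 bases, 5′ to 3′ in the sense of the mRNA.
Psmb5: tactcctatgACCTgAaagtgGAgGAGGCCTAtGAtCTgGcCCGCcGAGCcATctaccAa
Psmb8: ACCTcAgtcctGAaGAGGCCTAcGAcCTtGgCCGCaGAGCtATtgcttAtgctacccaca
Psmb6: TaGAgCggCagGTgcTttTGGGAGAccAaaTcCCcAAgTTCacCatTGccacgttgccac
Psmb9: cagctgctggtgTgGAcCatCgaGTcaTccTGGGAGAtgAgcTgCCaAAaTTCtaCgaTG
Per the file headers (build mm9), the Psmb5 probe lies at chr14:55233161-55233220 on the minus strand, the Psmb8 probe at chr17:34337771-34337830 on the plus strand, the Psmb6 probe at chr11:70341014-70341073 on the plus strand and the Psmb9 probe at chr17:34319174-34319233 on the minus strand. All 4 lie in exons, starting at bases 607, 856, 689 and 616 of their transcripts in the order named. The Psmb5 and Psmb6 probes are the ones whose levels are given below. The Psmb8 and Psmb9 probes shown are catalogue probes, which differed by -0.41 and -0.39 between the groups, and the levels of these genes given below come from brighter custom probes. The first pair shared 31 of 50 overlapping bases and no run longer than 8, and the second 27 of 48 and no run longer than 7.

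A pair of promoters is shown because they hold a match to the core of the antioxidant response element close to the start site. The core was searched as TGACNNNGC on both strands from 250 bases before to 50 bases after each start in RefSeq's GRCm38.p6 promoters. An entry was found for 26 of the 32 genes. The stretches below run from base -60 to base -1 before the start, with the match in capitals.
Psmb5: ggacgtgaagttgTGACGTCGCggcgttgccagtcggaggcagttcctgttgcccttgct
Psmb6: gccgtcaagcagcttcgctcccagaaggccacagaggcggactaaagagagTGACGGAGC
The Psmb5 stretch is chr14:54617996-54618055 on the minus strand and the Psmb6 stretch chr11:70525297-70525356 on the plus strand. Matches also lay on the opposite strand at bases -247 to -239 of Psmd12 (GCTGTGTCA as read on the gene's strand) and at bases -227 to -219 of Psmc6 (GCTAAGTCA). That is 4 of 26 genes, or 15.4%, beside 14.0% of all 27025 genes in the table and 12.4% of its 32851 promoters. The stricter form TGACTCAGC, of the same length with every base fixed, was in 0 of the 26 genes. It was in 0.503% of all genes and 0.454% of all promoters. A match is a description of letters and was not tested for binding, and 6 genes (Psmb1, Psmb2, Psmb7, Psmc3, Psmd3 and Psmd7) had no promoter entry to search.

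The targeted gene was low in every knockout array. At the custom Nfe2l2 probe that stayed measurable throughout, the wild type levels were 0.49, 0.39 and 0.35 and the knockout levels -3.74, -3.79 and -3.46. The difference was -4.08 (limma, SE 0.12, adjusted p = 0.00061). At a pair of catalogue probes the gene was not well above background in any knockout array, and the wild type mean was at least 81.5-fold and at least 65.6-fold higher. The bound sets the wild type mean against the higher, on each knockout array, of the probe's own signal and the lowest signal among probes well above background. Another probe, for a non-coding transcript of the locus, differed by -0.35 (adjusted p = 0.393). Across the arrays, 71.0 to 73.3% of probes were well above background. The first principal component held 52.2% of the variance and set knockouts 2 and 3, at 101 and 99.5, apart from the 4 arrays of slide 1, at -70.7 to -25.8. Of the cell type marker lists (neurons, astrocytes, oligodendrocytes, microglia, endothelium, choroid plexus and striatum), all 28 genes had a tested probe and none passed the threshold. Their median differences lay between -0.16 for the striatal and 0.18 for the choroid plexus list. The neuronal markers ran from -0.079 (Gad2) to 0.19 (Rbfox3), with a median of 0.0052. Single markers of other lists lay lower, with Gfap of astrocytes at -0.49, Kl of choroid plexus at -0.66 and the striatal Drd2 and Rgs9 at -0.43 and -0.37. The rest of these lists did not follow. Ttr and Folr1 of choroid plexus stood at 0.22 and 0.18, and the striatal Ppp1r1b and Drd1 at 0.14 and 0.048. Of the astrocyte markers, Aqp4 stood at 0.058, Aldh1l1 at -0.0014 and Slc1a2 at -0.11. The part of cell composition in the results was not tested. In whole tissue, fewer cells of a type and less RNA per cell cannot be told apart.

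No proteasome gene passed the test. Of the 32 genes, 0 had an adjusted p under 0.05 and 0 an unadjusted p under 0.05, beside 0.0171% and 12.4% of the 17560 coding genes at 1 probe each. Of the 72 probes, 0 passed either threshold, beside 0.0179% and 11.1% of 39126 coding probes. Over all 105922 tested probes of every RNA class, 10 passed (0.00944%). Adjusted p-values of the 32 genes ran from 0.367 to 0.995. The differences ran from -0.16 for Psmb1 to 0.27 for Psmd8, with 13 genes below and 19 above 0. Their median was 0.018, a change of 1.26%, beside -0.0051 over all coding genes. The median absolute difference was 0.054, beside 0.12 over all coding genes.

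The intervals bound how large a difference these arrays could have missed. For 29 of the 32 genes the 95% interval lay inside ±0.5 log2, that is between a loss of 29.3% and a gain of 1.41-fold. For 10 of the 32 it lay inside ±0.25, and for 32 of 32 inside ±1. The 3 genes that reached beyond ±0.5 were Psmb1 at the lower end and Psmb2 and Psmd8 at the upper end. With slide as a block, 30 of 32 intervals lay inside ±0.5 and 0 inside ±0.25, Psmb1 and Psmd6 being the exceptions at the lower end. At these probes, 1 per gene, no interval of either fit reached -1 or 1. Other probes left more open. Over all 72 probes and 6 arrays, the highest upper bound was 1.46, at the custom Psmd11 probe, and it was higher still with slide as a block.

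**Figure D1:**
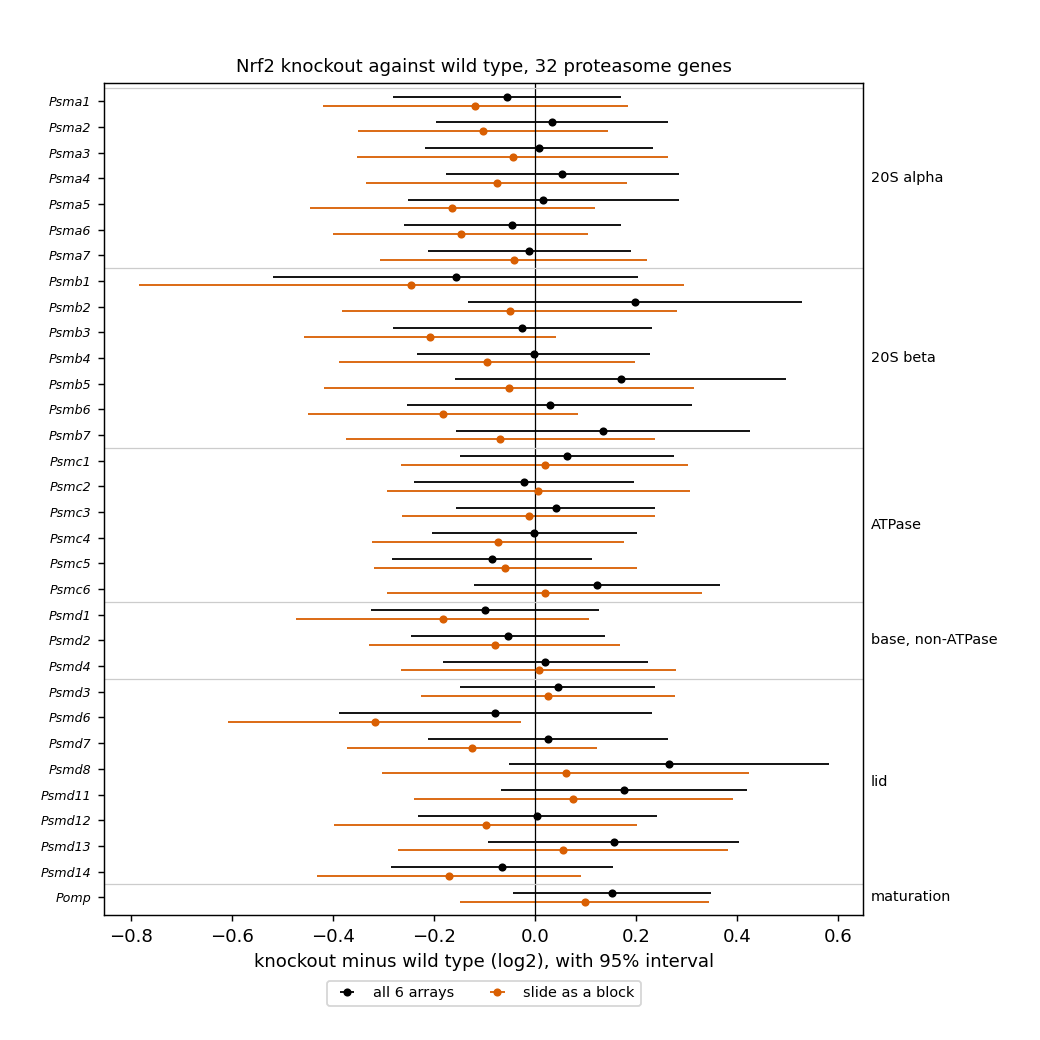
Knockout minus wild type difference (log2, x axis) of each of the 32 proteasome genes (y axis), with the 95% interval from limma as a bar, for the fit over all 6 arrays (black) and with slide as a block (orange). All black intervals cross 0, with Psmd8 farthest to the right at 0.27, and of the orange ones only that of Psmd6, at -0.32, does not.

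The alpha subunits form the outer rings and the gate. At 1 probe per gene they lay closest together: 7 differences between -0.056 and 0.054, with 3 below and 4 above 0 and a median of 0.0076. This depended on the probe. As means over all probes of a gene, they ran from -0.019 (Psma1) to 0.17 (Psma4), a wider range than the ATPases, at 0.0064 (Psmc1) to 0.13 (Psmc3). Psma1, subunit alpha-6, had both the smallest p and the largest difference of the ring. Its wild type levels were 4.98, 4.94 and 5.14 and its knockout levels 4.90, 5.005 and 4.98, so that the groups overlapped and wild type 3 was the highest array. The difference was -0.056 (interval -0.28 to 0.17, adjusted p = 0.766). Psma6 (alpha-1) and Psma7 (alpha-4) also had means slightly below wild type, by -0.045 and -0.011. Psma2 (alpha-2), Psma3 (alpha-7), Psma4 (alpha-3) and Psma5 (alpha-5) differed by 0.033, 0.0076, 0.054 and 0.016. The widest interval in the ring, that of Psma5, ran from -0.25 to 0.28. None of these 7 genes had groups that did not overlap.

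The beta subunits form the inner rings, and 3 of them hold the active sites. Psmb5 (beta-5, chymotrypsin-like) had wild type levels of 4.34, 4.31 and 4.54 and knockout levels of 4.34, 4.58 and 4.77. Knockout 1 sat within the wild type range and knockouts 2 and 3 above it. The mean difference was 0.17 (interval -0.16 to 0.50, adjusted p = 0.527), and it was -0.052 with slide as a block. Psmb6 (beta-1, caspase-like) had wild type levels of 4.79, 4.86 and 4.93 and knockout levels of 4.68, 5.01 and 4.98. Here knockout 1 was the lowest of the 6 arrays and knockouts 2 and 3 were the highest, for a mean difference of 0.030 (interval -0.25 to 0.31, adjusted p = 0.908) that was -0.18 with slide as a block. Psmb7 (beta-2, trypsin-like) had wild type levels of 5.55, 5.47 and 5.61 and knockout levels of 5.47, 5.70 and 5.86. It had the order of Psmb5, with a difference of 0.13 (interval -0.16 to 0.43, adjusted p = 0.571) that was -0.069 with slide as a block.

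Among the beta subunits without an active site, Psmb2 (beta-4) had the smallest p and the largest difference of the ring. Its wild type levels were 2.55, 2.37 and 2.59 and its knockout levels 2.46, 2.78 and 2.88. Again knockout 1 lay among the wild type arrays and the other knockouts above them, with a difference of 0.20 (interval -0.13 to 0.53, adjusted p = 0.472) that was -0.050 with slide as a block. A second Psmb2 probe that shares 44 bases with this one gave -0.051. Psmb1 (beta-6), Psmb3 (beta-3) and Psmb4 (beta-7) differed by -0.16, -0.025 and -0.0027. The Psmb1 value rested on a wide wild type spread, of 4.11, 4.45 and 4.604, and a second Psmb1 probe differed by 0.24.

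The 6 ATPases form the ring that unfolds substrates and opens the gate, and 3 lay below and 3 above 0, with a median of 0.020. Psmc6 (Rpt4) had the smallest p and the largest difference. Its wild type levels were 4.88, 4.72 and 4.93 and its knockout levels 4.87, 5.04 and 5.003, with knockout 1 inside the wild type range. The difference was 0.12 (interval -0.12 to 0.37, adjusted p = 0.534). Psmc5 (Rpt6) was the one member whose knockout arrays all lay below every wild type array, at 6.23, 6.15 and 6.23 against 6.28, 6.25 and 6.33. The gap was small, with a difference of -0.085 (interval -0.28 to 0.11, adjusted p = 0.596). Such non-overlap towards lower values was found for 12.9% of all coding genes, and Psmc5 was singled out after its values were seen. Psmc1 (Rpt2), Psmc2 (Rpt1), Psmc3 (Rpt5) and Psmc4 (Rpt3) differed by 0.063, -0.022, 0.041 and -0.0012.

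Of the 3 base subunits that are no ATPases, Psmd1 (Rpn2), a large scaffold, had the smallest p and the largest difference. Its wild type levels were 5.94, 5.999 and 6.06 and its knockout levels 5.82, 6.01 and 5.87. Knockouts 1 and 3 lay below the wild type arrays and knockout 2 among them, for a difference of -0.099 (interval -0.32 to 0.13, adjusted p = 0.591). Psmd2 (Rpn1), the other scaffold and a docking site for shuttling receptors, differed by -0.054. Psmd4 (Rpn10), a ubiquitin receptor, differed by 0.020.

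In the lid, which holds the deubiquitinase that removes the ubiquitin chain, 2 genes lay below and 6 above 0, with a median of 0.035. Psmd8 (Rpn12), the subunit that completes lid assembly, had the smallest p and the largest difference of all 32 genes. Its wild type levels were 3.14, 2.97 and 3.25 and its knockout levels 3.18, 3.42 and 3.55. Knockout 1 lay inside the wild type range and knockouts 2 and 3 above it. The difference was 0.27 (interval -0.051 to 0.58, adjusted p = 0.367). With slide as a block it was 0.061 (interval -0.30 to 0.42), and the second Psmd8 probe gave -0.11.

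Psmd14 (Rpn11), the lid's deubiquitinase, differed by -0.066 (interval -0.29 to 0.15). Psmd6 (Rpn7) differed by -0.079 over all arrays. Its knockout 1 level of 5.15 lay below the wild type levels of 5.43, 5.41 and 5.56, and its knockouts 2 and 3, at 5.56 and 5.47, did not. With slide as a block it was the 1 gene of 32 with an unadjusted p under 0.05, at -0.32 (adjusted p = 0.857), beside 5.40% of all coding genes. Psmd3 (Rpn3), Psmd7 (Rpn8), Psmd11 (Rpn6), Psmd12 (Rpn5) and Psmd13 (Rpn9) differed by 0.044, 0.026, 0.18, 0.0046 and 0.16. At Psmd11 and Psmd3 all 3 knockout arrays lay above all 3 wild type arrays, which was so for 6.47% of coding genes. The wild type levels of Psmd11 were 4.71, 4.51 and 4.71 and its knockout levels 4.72, 4.87 and 4.88.

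Pomp chaperones the assembly of the core particle and is destroyed as its first substrate. At its catalogue probe the wild type levels were 6.42, 6.42 and 6.37 and the knockout levels 6.50, 6.58 and 6.58, without overlap. The difference was 0.15 (interval -0.043 to 0.35, adjusted p = 0.385). At its custom probe the groups did not overlap either, but in the other direction, at 5.55, 5.46 and 5.50 against 5.42, 5.42 and 5.31, for a difference of -0.12 (adjusted p = 0.492). The 2 probes of 1 gene thus separated the same 6 arrays in opposite directions. In all, 3 of the 32 genes (Psmd3, Psmd11 and Pomp) had no overlap with the knockout higher, and 1 (Psmc5) with the knockout lower.

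The 3 knockout arrays did not lie to the same side of wild type across the 32 genes. In knockout 1, 23 of the 32 lay below the wild type mean, with a median of -0.071, beside 65.9% of coding genes and a median of -0.060. At this 1 probe per gene, all 14 core subunits were among them, at -0.25 to -0.042, against 9 of the 17 cap subunits. The split did not hold at every probe, as the custom Psma1 probe stood at 0.044. Over all 72 probes, 44 lay below and 28 above the wild type mean on knockout 1. This contrast of core and cap rests on 1 array and was not tested. In knockouts 2 and 3, 25 and 23 of the 32 lay above the wild type mean, with medians of 0.047 and 0.072, beside 0.041 and 0.0088 over coding genes. Of 17560 coding genes, 10052 and 9029 lay above it on these arrays. Wild type 3 was also above the wild type mean for 30 of the 32, with a median of 0.058, beside 10861 of the coding genes. The sign of 12 of the 32 differences changed with slide as a block: Psma2, Psma3, Psma4, Psma5, Psmb2, Psmb5, Psmb6, Psmb7, Psmc3, Psmd7 and Psmd12 went below 0 and Psmc2 above it. In that fit 23 genes lay below 0 and the median was -0.071, beside -0.060 over all coding genes. Without knockout 1, the comparison of slide 1 wild types with slide 2 knockouts gave 25 of 32 above 0, beside 55.2% of coding genes. In that comparison 0 proteasome genes and 0 of their probes passed. There the lowest adjusted p was 0.0970 for genes and 0.0538 for probes, while 8.95% of coding genes passed. Genotype and slide cannot be told apart in that fit.

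**Figure D2:**
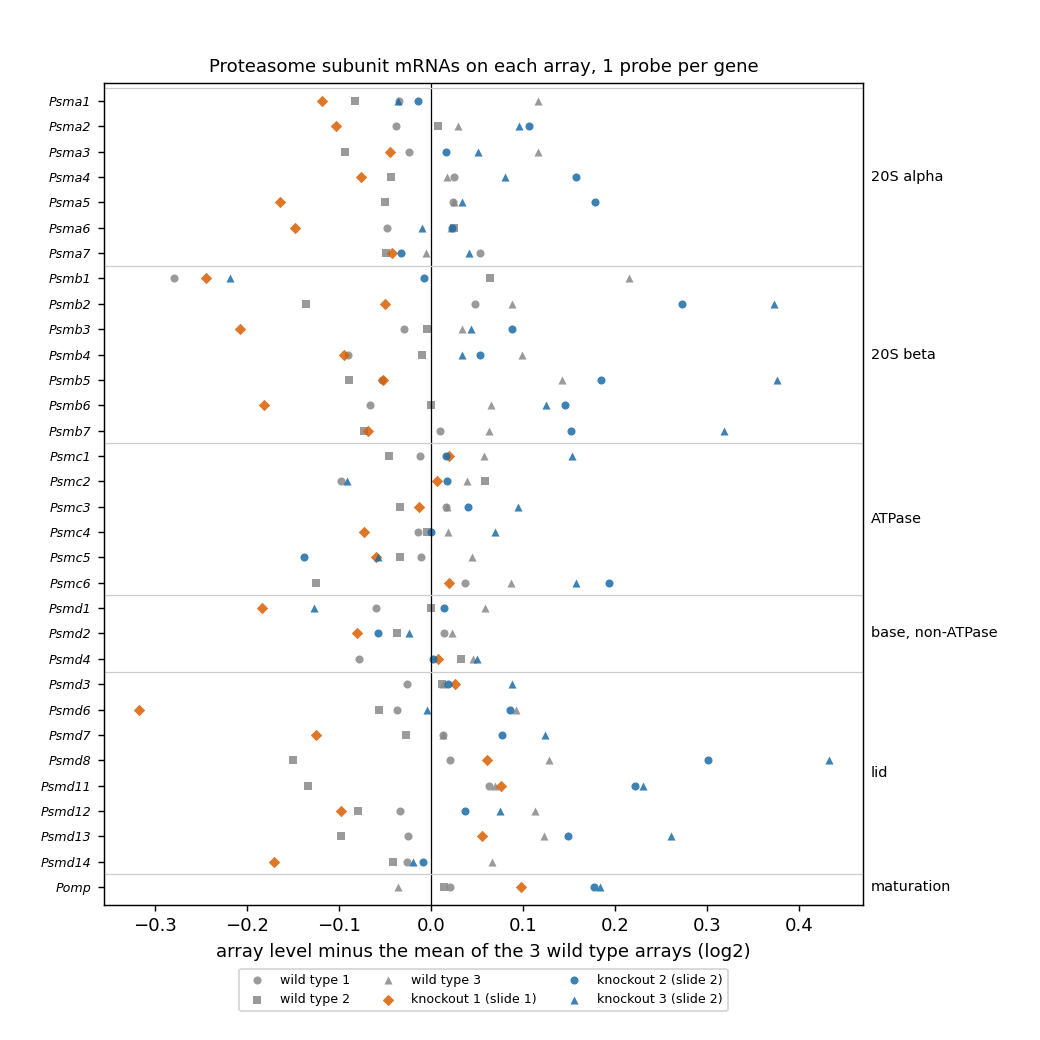
Level of each proteasome gene on each of the 6 arrays, as the log2 difference from the mean of the 3 wild type arrays (x axis), with genes by role on the y axis. Grey symbols are wild type, the orange diamond knockout 1 on slide 1, and blue symbols knockouts 2 and 3 on slide 2. At 1 probe per gene, the diamonds of all 14 core subunits lie left of 0, and most blue symbols of the beta and lid subunits lie right of it.

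The probes of 1 gene did not always give 1 answer. Of the 31 genes with more than 1 probe, 19 had probes of opposite sign. The range between the probes of a gene had a median of 0.14 and was widest for Psmb1, at 0.40. In 22 of the 31 genes the difference was higher at the dimmest probe than at the brightest. The parts of signal level and of probe design were not tested. The array held 41 of Agilent's catalogue probes for these genes and 31 custom probes. Of the catalogue probes, 35 of 41 lay above 0 with a median of 0.11, beside 63.5% and a median of 0.060 for all coding catalogue probes. Of the custom probes, 15 of 31 lay above 0 with a median of -0.0012, beside 44.3% and a median of -0.023. With slide as a block, 19 of 41 catalogue and 9 of 31 custom probes lay above 0.

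Psmc5 is an example of 1 gene whose probes disagreed, its catalogue probes among themselves included. Its custom probe and the catalogue probe that starts at base 1167, which share 39 bases, differed by -0.085 and -0.068. The catalogue probe that starts at base 236 had wild type levels of 2.37, 2.36 and 2.53 and knockout levels of 2.55, 2.64 and 2.83, with no overlap. Its difference was 0.25 and had the smallest p of the 72 probes (unadjusted 0.0567, adjusted 0.338). Psmb1 was alike: its custom probe gave -0.16, and its catalogue probe at base 218 gave 0.24, with wild type levels of 3.89, 3.77 and 3.92 and knockout levels of 3.93, 4.07 and 4.30. Where probes shared nearly all their bases they gave nearly the same value. The pairs of Psma5 and Psmb3 that share 59 of 60 bases differed from each other by 0.014 and 0.016. The largest difference of any member probe, 0.52 at the custom Psmd11 probe, came from wild type 1 at -0.79, while the other 5 arrays lay between 0.60 and 0.73.

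**Figure D3:**
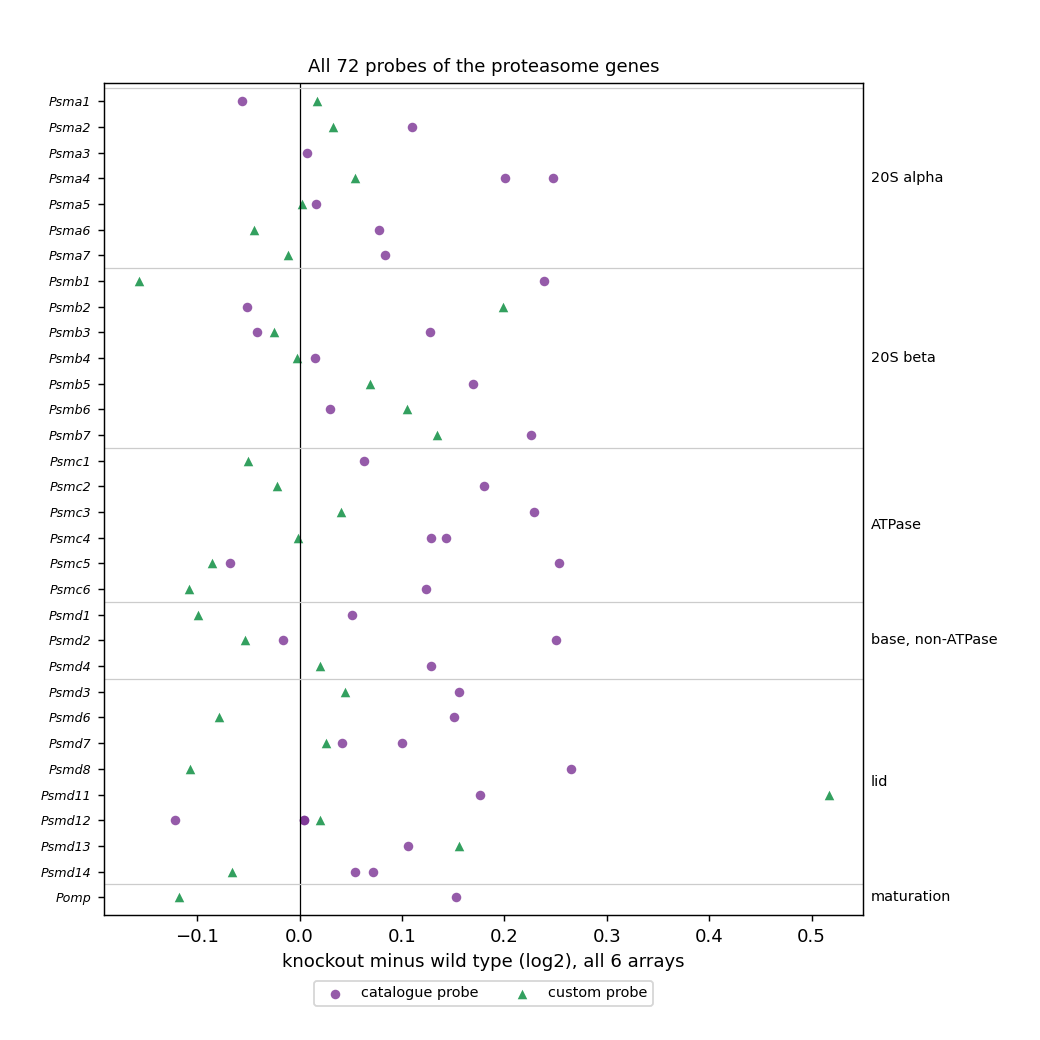
Knockout minus wild type difference (log2, x axis) of each of the 72 probes, by gene (y axis). Purple circles are catalogue probes, 35 of 41 of them above 0, and green triangles custom probes, 15 of 31 above 0, and the point far to the right is the custom Psmd11 probe at 0.52.

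The other genes of the pathway were taken from a list of 38, of which 36 had a probe, 95 in all, and 94 were tested. Paaf1 and Ddi2 were not analysed here. None of the 94 probes passed the threshold. At an unadjusted p under 0.05, 8 were lower and 2 higher, beside 6.95% lower and 4.11% higher among coding probes. Of the 8, 6 were probes of the immunoproteasome genes Psmb8 and Psmb9 and of the thymus form Psmb11. Over the 36 genes, 21 lay below and 15 above 0, with a median of -0.0028.

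The immunoproteasome subunits replace the constitutive catalytic ones after interferon and are high in immune cells. Psmb8, the counterpart of Psmb5, had wild type levels of 2.57, 2.57 and 2.36 and knockout levels of 1.94, 1.62 and 1.57 at its brightest probe. All knockout arrays, knockout 1 included, lay below all wild type arrays. The difference was -0.79 (interval -1.11 to -0.47, adjusted p = 0.307), and -0.56 with slide as a block (adjusted p = 0.695). The other Psmb8 probes gave -0.39 and -0.41. Psmb9, the counterpart of Psmb6, differed by -0.30 and -0.39 at its probes, with wild type levels of 0.22, 0.10 and -0.17 and knockout levels of -0.30, -0.27 and -0.20 at the brighter one. Psmb8 and Psmb9 lie close together in the histocompatibility region of chromosome 17. Psmb10, the counterpart of Psmb7 and on another chromosome, differed by -0.0027 and 0.0026 at its probes. Psmb9 stood at -0.35 and -0.34 and Psmb10 at 0.12 and 0.16 with slide as a block. The microglial marker list, beside these immune subunits, had 0 of 4 genes past the threshold and differences of -0.069 to -0.0094, and the part of cell composition in them was not tested. Psmb11, the thymus form, had 1 probe that was not well above background on any array and 1 at -1.29 (adjusted p = 0.307), whose knockout levels were -0.94, -1.90 and -2.02 against -0.35, -0.12 and -0.51. The blocked value of that probe was -0.61.

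Within each array, the log ratio of the induced to the constitutive subunit cancels a shift shared by both probes. For Psmb8 over Psmb5 the ratio, set against its wild type mean, took wild type values of 0.12, 0.16 and -0.28 and knockout values of -0.50, -1.06 and -1.31. The 3 knockout arrays lay below all wild type arrays, for a mean difference of -0.96. Its size depends on the probe, as the brightest Psmb8 probe used here fell further than the other Psmb8 probes. The exact permutation test over arrays, two-sided, gave p = 0.1, the smallest it can give with 3 against 3. Within slide 1 the difference was -0.50. For Psmb9 over Psmb6 the difference was -0.33 and the groups overlapped (exact permutation p = 0.2), and for Psmb10 over Psmb7 it was -0.14 (exact permutation p = 0.4). Within slide 1 these were -0.17 and 0.19, so that the direction of the last pair turned. The permutation test takes no account of the slide. Adjusted over the 3 pairs, which were chosen after values of these genes were seen, the p-values were 0.3, 0.3 and 0.4.

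**Figure D4:**
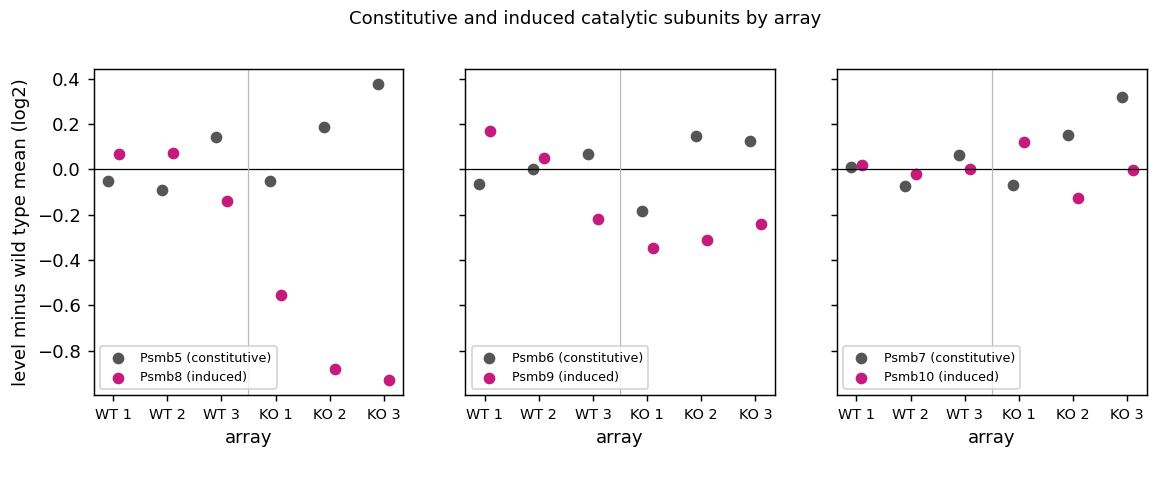
Level of each constitutive catalytic subunit (grey) and its induced counterpart (magenta) on each array (x axis; WT wild type, KO knockout), as the log2 difference from the wild type mean (y axis), at the probe of the highest mean. Psmb8 lies below its wild type arrays on all 3 knockout arrays while Psmb5 lies above 0 on knockouts 2 and 3, and Psmb10 lies on both sides of 0.

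Activators, assembly factors and receptors gave no call. Psmf1, an inhibitor of the core, had the smallest p of its group at its dimmest probe, 0.41 (adjusted p = 0.312), while its brightest gave 0.075. Psme3, the nuclear activator, gave -0.37 and -0.19 at its probes (adjusted p = 0.313 and 0.347). Of the assembly factors, Psmg3 gave 0.32 and 0.23 (adjusted p = 0.327 and 0.397) and Psmg4 -0.19 at each of its probes. With slide as a block these Psmf1 probes stood at 0.60 and 0.18, those of Psme3 at -0.12 and -0.16, and those of Psmg3 at 0.11 and -0.0090. Rad23b, a shuttling ubiquitin receptor, gave -0.24 at 1 probe (adjusted p = 0.312), and Txnl1, a thioredoxin attached to the cap, -0.14 at its brightest. Among the regulators, Nfe2l1 differed by -0.0029 and 0.097, and Vcp, the segregase that releases Nrf1 from the membrane, by -0.26, 0.12 and 0.13 at its probes (lowest adjusted p = 0.354). The Vcp probes with slide as a block stood at -0.038, 0.054 and 0.027. The brightest Ubb probe, for a polyubiquitin gene, gave -0.17 (adjusted p = 0.381). Of the ubiquitin group the smallest p belonged to Rps27a (unadjusted 0.0686). The testis subunit Psma8 differed by 0.092 and 0.26.

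The array also reads circular RNAs, closed loops made by back-splicing of exons. Of the tested circRNA probes, 50 lay inside 1 of 16 proteasome genes and in no other coding gene. The names on the array carry positions, read here as GRCm38 because 97.3% of them then lie inside a coding gene, against 35.9% after a shift by 1 Mb. None of the 50 passed, beside 0.00289% of 34553 circRNA probes. At an unadjusted p under 0.05, 7 were lower and 2 higher, beside 6.15% and 8.69%. The 2 of the smallest p were both higher: 1 in Psmc4 (chr7:28042508-28042649) by 0.32 and 1 in Psmd3 (chr11:98693383-98694293) by 0.34, with adjusted p = 0.312 and 0.319. They were 0.17 and 0.10 with slide as a block. The Psmd3 circle had wild type levels of 0.75, 0.87 and 0.91 and knockout levels of 0.95, 1.30 and 1.29.

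In 5 of the genes, 1 circRNA each stood far lower on knockouts 2 and 3 alone. The Psmb1 circle (chr17:15490156-15494523) had wild type levels of 0.94, 0.84 and 1.07. On slide 1, knockout 1 read 0.98, against -1.63 and -1.35 for the slide 2 knockouts. A Psma6 circle (chr12:55410127-55412365) had wild type levels of 1.94, 1.88 and 2.02. Here knockout 1 read 1.86, against -0.41 and -0.17 for the slide 2 knockouts. Circles of Pomp (chr5:147875517-147875740), Psmc6 (chr14:45330987-45340691) and Psma1 (chr7:114264891-114266516) did likewise, with mean differences of -1.46, -1.11 and -0.999. In each, knockout 1 lay within 0.087 of the wild type mean. These 5 are the probes on which both slide 2 arrays lay over 1 log2 below all 4 slide 1 arrays, as did 2.42% of all circRNA probes, 0.657% of coding probes and 0 of the 72 member mRNA probes. The threshold was chosen after values were seen. Over the 50 circles, knockout 1 differed from the wild type mean by -0.16 to 0.17.

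The 4 Psma6 circles are shown because probes for circles of 1 gene gave different values. They combine 2 start positions with 2 end positions, and the probes are printed with the run shared by circles of the same start in capitals.
chr12:55407469-55412365: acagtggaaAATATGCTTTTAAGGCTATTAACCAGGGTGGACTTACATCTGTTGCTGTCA
chr12:55407469-55414498: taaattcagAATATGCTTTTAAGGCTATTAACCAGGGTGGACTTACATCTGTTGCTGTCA
chr12:55410127-55412365: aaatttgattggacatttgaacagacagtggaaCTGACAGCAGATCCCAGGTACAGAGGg
chr12:55410127-55414498: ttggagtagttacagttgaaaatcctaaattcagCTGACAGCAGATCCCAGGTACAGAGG
Both circles that start at 55407469 differed by 0.14 and 0.13 (adjusted p = 0.531 and 0.554). Those that start at 55410127 differed by -1.52 and -0.37 (adjusted p = 0.320 and 0.326), and their knockout 1 arrays by -0.087 and -0.077. The Psma6 mRNA differed by -0.045. Probes of the start at 55407469 share 51 of their 60 bases, and those of the start at 55410127 share 26. Whether a probe reads only its own circle, and not the other circle or linear Psma6 RNA, was not tested. Genotype and slide cannot be told apart for what is seen only on knockouts 2 and 3.

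**Figure D5:**
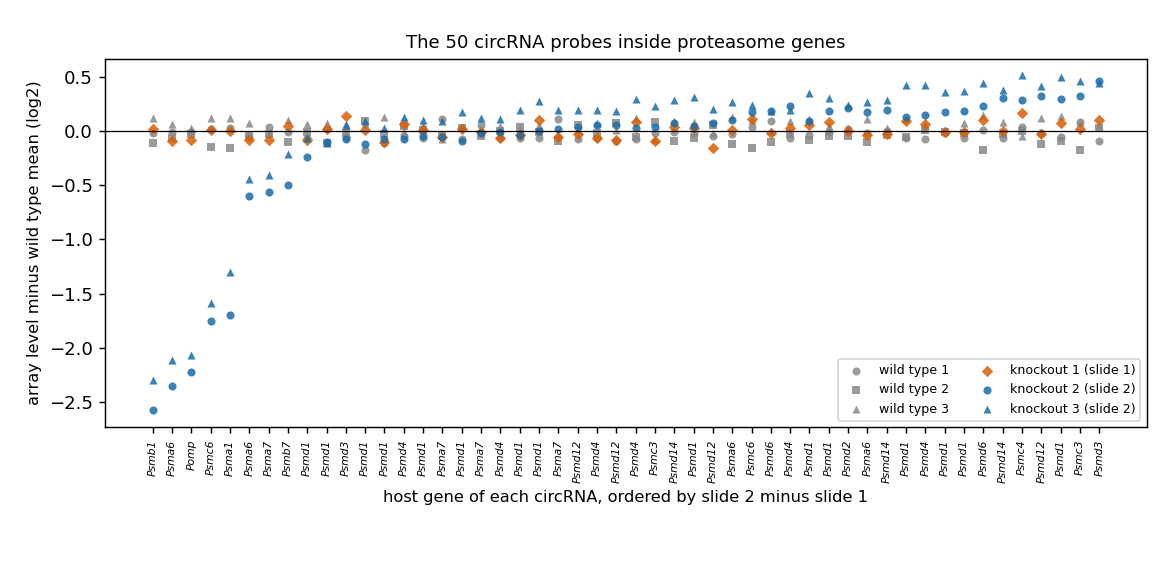
Level of each of the 50 circRNA probes inside proteasome genes on each array, as the log2 difference from the wild type mean (y axis), ordered by slide 2 minus slide 1 and labelled by host gene (x axis). Grey symbols are wild type, orange diamonds knockout 1 and blue symbols knockouts 2 and 3. At the left, 5 circles lie over 1 below the rest on the blue arrays only, while the diamonds stay between -0.16 and 0.17 throughout.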

How the data were processed

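Per the file headers, the deposited scanner output holds linear intensity values from Agilent Feature Extraction 12.0.3.1, background-subtracted and detrended. The submitters' processing notes instead name version 10.7, and limma. The authors' deposited value table holds log2 values, a scale found by comparison with the scanner values (r at least 0.99986, column medians 5.59). How they were normalised is not stated in the sources. They lay close to the quantile-normalised processed signal, with a median absolute difference of 0.0035 to 0.0043 per array. The probes of the value table were not centred, so direction was not in doubt. It served as an alternative, though one nearly the same as quantile normalisation.

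The processed signal was scaled as stated above, after leaving out 4974 control spots and flagged outliers. A probe was tested if well above background on all 3 arrays of a group. Groups were compared with limma 3.58.1 (lmFit, eBayes, two-sided, no covariate) in R 4.3.3, with Benjamini-Hochberg adjustment over 105922 probes and a threshold of 0.05. The procedure was tested on simulated data with independent noise and no slide effect, so that test does not speak to the slide difference. Precision is limited by having 3 arrays in a group.

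Symbols came from RefSeq's GRCm38.p6 table for 48048 of 48467 RefSeq probes. Members and lists were chosen with earlier results of these data known. Per-array values are given, in each role group, for the gene of smallest p and that of largest difference, for Psmb5, Psmb6, Psmb7 and Nfe2l2, and for others said to be singled out. Among related genes, those of smallest p are named per group, and 2 circRNAs. No pairing by replicate number was seen: same-numbered arrays correlated at -0.050 to 0.038 in their deviations from group means. Since the knockout arrays also differ by slide, these correlations could not exclude a pairing. Alternatives covered scaling, background correction, filters, probe averaging, slide, replicate block and leaving out each array.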

Additional observations from a re-analysis of the deposited data

How the results depend on the processing

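Under every alternative tried, 0 proteasome genes and 0 proteasome probes passed the threshold: median scaling, quantile normalisation, normexp with quantile, the authors' value table, a filter on both groups, no filter, the mean over all probes of a gene, slide as a block, slide 1 alone, the replicate block and each array left out. Their unadjusted count under 0.05 reached 12 of 72 probes with normexp and 11 without knockout 1. In the same fits 18821 and 33554 of all 105922 tested probes had such a p. The median difference of the genes was 0.018 and became -0.071 with slide as a block and within slide 1. It ranged from -0.0064 to 0.061 with 1 array left out. Of 144 alternative values of the 9 genes given by rule, 12 had the other sign, 8 of them in the slide fits. Slide as a block and slide 1 alone give the same differences, so those 8 are 4 values counted in each fit. With the replicate block, Nfe2l2 stayed at -4.08 with an adjusted p of 0.0519, and the proteasome, related and circRNA probes past the threshold stayed at 0. With 1 array left out, related probes past the threshold ranged from 0 to 4 and circRNAs of members from 0 to 8. The highest of each, of 94 related and 50 circRNA probes, came without knockout 1, where genotype and slide cannot be told apart. In that fit 13558 of all 105922 tested probes passed. The related probes and circles that passed there were 1 probe each of Psmb8, Psmb11, Psme3 and Adrm1, and the 7 lowest circles with 1 of Psmd3. Over all probes the count of 10 ranged from 2 (replicate block) to 50 (without wild type 1), apart from 13558 without knockout 1. Median scaling raised the members' median to 0.069 and that of all coding genes to 0.046.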

Other observations

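Nfe2l2 lies on chromosome 2, and so do 4 of the proteasome genes: Psmb7, Psma7, Psmc3 and Psmd14. Their differences were 0.13, -0.011, 0.041 and -0.066, inside the range of the other members, and none passed the threshold. The 6 members on chromosome 11 (Psmb3, Psmb6, Psmc5, Psmd3, Psmd11 and Psmd12) lay between -0.085 and 0.18.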
